A study of Mus musculus with 6 samples.

Results

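The expression of 45 genes that write, read or remove marks on DNA and histones, or that move nucleosomes, was followed in induced T cells (iT cells) of the mouse. Members were taken by gene name, with no expression threshold, from a list drawn up with earlier results of these data known. It holds DNA methyltransferases, TET dioxygenases, Polycomb repressive complex 2 (PRC2), histone lysine methyltransferases and demethylases, histone acetyltransferases and deacetylases, chromatin remodellers and 3 scaffold proteins. All 45 had a row among the 23420 rows of the table, 3 of them (Kmt2a, Kmt2c and Kmt2d) under the older symbols Mll1, Mll3 and Mll2. Mll2 has been used for both Kmt2b and Kmt2d, and the row was read as Kmt2d because Kmt2b had a row of its own. Genes that reached 1 TPM in 3 or more of the 6 libraries were tested, which were 10476 in all and 44 of the 45 members.

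DNA methylation is copied at each division by Dnmt1 with its partner Uhrf1, is laid down anew by Dnmt3a and Dnmt3b, and is oxidised by the TET enzymes. PRC2 places the repressive methyl mark of Polycomb silencing, other methyltransferases mark active promoters or heterochromatin, and demethylases take such marks away. Acetyltransferases open chromatin, deacetylases close it, and ATP-driven remodellers shift nucleosomes. In developing thymocytes, regulators of these classes act at the choice between the CD4 and CD8 fates, for example in keeping the Cd4 gene silent in cytotoxic cells.

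The iT cells descended from mouse pluripotent stem cells of C57BL/6 background (CD45.2) that carried a doxycycline-inducible Runx1-p2a-Hoxa9 cassette at the Rosa26 locus, the iR9 cells. Their progeny were matured in culture with doxycycline on OP9-DL1 stromal cells, and the resulting blood progenitors were transplanted into sublethally irradiated adult B-NDG hosts (NOD background, Prkdc scid, Il2rg null, CD45.1), which lack their own T, B and NK cells. The study describes its main transplants of these progenitors as made without doxycycline in the host, with no separate statement for the mice of these libraries. Donor cells were sorted from the spleen as CD4 single-positive (CD4SP) or CD8 single-positive (CD8SP) iT cells, and each library was made from 1000 cells. There were 3 CD4SP and 3 CD8SP libraries, which share the cassette, the host strain and the tissue and differ in the sorted population. The study calls the libraries biological replicates, and neither it nor the labels say whether each came from a separate mouse, so p-values measure only the spread between these libraries. No library of T cells from an unmanipulated mouse was part of this table, so the levels were not set against natural T cells here. The study itself compared its iT cells with natural T cells from separately published data.

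Values were TPM, a measure of transcript abundance scaled for transcript length and to a fixed total per library, so levels of different genes can be compared within a library. TPM keeps no sequencing depth, and the depth of each library is unknown. CD4SP libraries listed 10329 to 10649 genes at 1 TPM or more and CD8SP libraries 9971 to 10149. Transcripts of 86 ribosomal protein genes took 24.65, 29.55 and 24.9% of TPM in CD4SP replicates 1 to 3 and 33.11, 32.7 and 36.58% in CD8SP replicates 1 to 3. Since TPM has a fixed total, a larger share of one class lowers all other values. The median difference over the 10476 tested genes was 0.284 on the log2 scale in favour of CD4SP. With the ribosomal protein genes removed it was 0.144, and the part of the ribosomal share in this median was not tested. A positive log2 difference means a higher level in CD4SP throughout, on log2(TPM + 1). Differences between fewer cells of a type and less RNA per cell cannot be told apart in such bulk samples.

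The labels were checked against markers. Cd4 reached 331, 281 and 279 TPM in CD4SP libraries and was listed at 0 in CD8SP replicates 2 and 3 and at 0.104 TPM in replicate 1, while Cd8a was at 0.319 to 2.93 TPM in CD4SP against 1040 to 1160 TPM in CD8SP libraries. The populations also differed in genes of other T and NK cell states. Of 10 regulatory T cell markers, 9 were called higher in CD4SP (7.92% of all tested genes), with summed levels of 3840 to 4240 TPM against 624 to 713 TPM. Of the 9, Gpr83 was listed at 0 in every CD8SP library. It met the 1 TPM filter only through the CD4SP libraries, so its values are a description. The marker not called was Foxp3, the defining regulator of that lineage, at 142, 6.56 and 167 TPM in CD4SP against 7.48, 7.48 and 10 TPM in CD8SP (adjusted p 0.1), so that CD4SP replicate 2 lay below every CD8SP library. Of 8 NK cell markers 7 were tested, and 5 were called higher in CD8SP, as were 1.8% of all tested genes. Their list summed to 8730 to 8870 TPM in CD8SP against 2020 to 2150 TPM in CD4SP, most of it Nkg7. Ncr1 was listed at 0 in all 6 libraries, and Tbx21 (0.02, adjusted p 0.956) and Fcgr3 (-0.606, adjusted p 0.218) were not called. B cell markers summed to 17.9 to 26.8 TPM in CD4SP against 23.5 to 25.3 TPM in CD8SP libraries, with Pax5 and Ms4a1 listed at 0 in all 6, and erythroid and platelet markers summed to at most 1.11 TPM. Of 10 myeloid markers, Lyz2 and Cst3 were higher in CD4SP and Cd68 in CD8SP at an adjusted p under 0.05, Mpo, S100a8 and S100a9 had no value above 0, and the list summed to 518 to 575 TPM against 301 to 404 TPM, most of it Cst3. The part of these cell states in the differences below was not tested.

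Promoters are shown for the 3 members with the smallest adjusted p, all higher in CD4SP, and for Kat2a, the member whose CD8SP libraries all lay above its CD4SP libraries. Each line gives the 250 bases before the RefSeq start site nearest the annotated 5′ end of the gene, on GRCm38.p6, 5′ to 3′ on the gene's strand, with CG dinucleotides, the sites of DNA methylation, in capitals. Kdm2b lies on chr5:122989100-122989349 (minus strand), Ctcf on chr8:105636288-105636537 (plus), Kat2b on chr17:53566721-53566970 (plus) and Kat2a on chr11:100712468-100712717 (minus).
Kdm2b: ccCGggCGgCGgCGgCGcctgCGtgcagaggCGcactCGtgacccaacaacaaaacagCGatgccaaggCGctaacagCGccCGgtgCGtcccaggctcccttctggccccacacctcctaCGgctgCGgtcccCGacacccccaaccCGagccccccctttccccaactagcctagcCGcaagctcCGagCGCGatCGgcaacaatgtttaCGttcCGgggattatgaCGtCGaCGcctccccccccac
Ctcf: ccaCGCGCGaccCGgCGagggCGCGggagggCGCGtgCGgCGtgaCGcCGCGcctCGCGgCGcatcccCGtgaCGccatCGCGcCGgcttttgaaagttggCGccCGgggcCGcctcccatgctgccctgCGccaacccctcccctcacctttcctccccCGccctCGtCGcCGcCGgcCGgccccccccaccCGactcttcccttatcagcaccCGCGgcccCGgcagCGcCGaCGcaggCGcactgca
Kat2b: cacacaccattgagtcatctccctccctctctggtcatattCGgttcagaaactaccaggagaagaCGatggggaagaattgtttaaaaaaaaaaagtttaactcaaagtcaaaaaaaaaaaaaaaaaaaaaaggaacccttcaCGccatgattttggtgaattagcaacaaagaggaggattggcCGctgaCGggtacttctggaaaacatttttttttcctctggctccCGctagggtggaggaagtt
Kat2a: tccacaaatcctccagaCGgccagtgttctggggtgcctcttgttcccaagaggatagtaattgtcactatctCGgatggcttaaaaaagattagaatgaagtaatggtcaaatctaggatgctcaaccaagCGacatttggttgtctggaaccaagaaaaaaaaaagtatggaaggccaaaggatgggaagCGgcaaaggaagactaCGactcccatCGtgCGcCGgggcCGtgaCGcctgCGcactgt
The printed stretches held 27 CG in Kdm2b, 40 in Ctcf, 6 in Kat2b and 11 in Kat2a. RefSeq windows of 300 bases, which add the 50 bases after the start, were at hand for 39 of the 45 members and 7772 tested genes. Over all 57 windows of the members the median was 29 CG, against 21 over 9881 windows of tested genes, and 91.2% of the members' windows held 10 or more, against 80.4%. Among the windows nearest the 5′ ends, the count ran from 2 in Dnmt1 to 57. The Sp-type box GGGCGG, read on both strands, stood in 73.7% of the members' windows and 63.1% of those of tested genes, and the ETS-type core CCGGAAG in 7.0% and 19.5%. The E2F-type motifs TTTGGCGC and TTTCCCGC each stood in 3.5% of the members' windows, against 1.1% and 2.1%. Of the 4 windows shown, those of Kdm2b and Ctcf held GGGCGG and none held another of these motifs. These matches describe the letters only, and methylation was not measured.

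**Figure D1:**
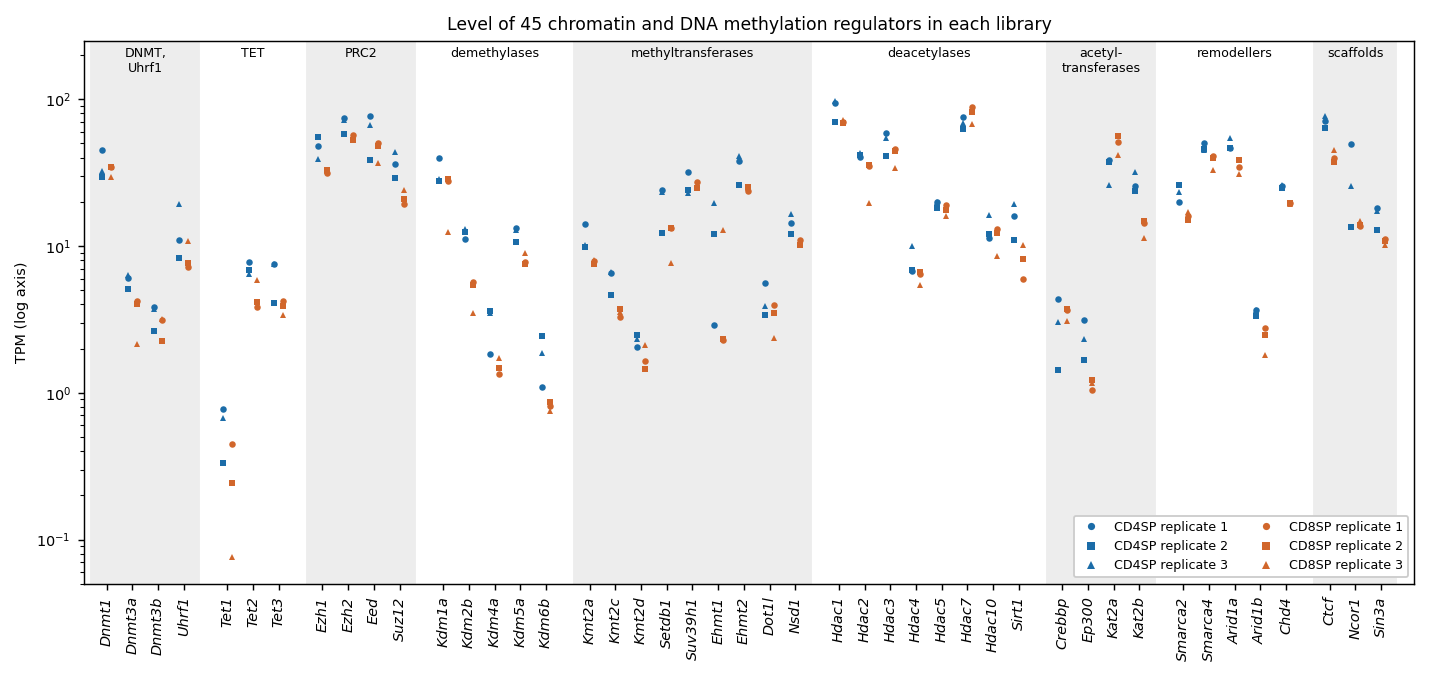
Level of each of the 45 members in each of the 6 libraries, in TPM on a log axis, grouped by role, with circles, squares and triangles for replicates 1, 2 and 3. Hdac1 had the highest mean (78.7 TPM) and Tet1 the lowest (0.424 TPM), and most members lay slightly higher in the CD4SP libraries (blue) than in the CD8SP libraries (orange).

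The members were moderately expressed. Their median level over the 6 libraries was 13.4 TPM, against 17.6 TPM for all tested genes. The 5 members above 50 TPM were the deacetylases Hdac1 and Hdac7, the PRC2 members Ezh2 and Eed, and the insulator protein Ctcf, while 11 members lay under 5 TPM. The latter included Tet1, the acetyltransferases Ep300 and Crebbp, the large methyltransferase Kmt2d, and the demethylases Kdm4a and Kdm6b.

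One member, the CpG island-binding demethylase Kdm2b, was called at an adjusted p under 0.05 (limma, Benjamini-Hochberg over all tested genes) and more than 2-fold. That is 2.27% of the 44 tested members, against 9.73% of all tested genes (7.92% higher in CD4SP and 1.8% higher in CD8SP). On the adjusted p alone 6 members passed, all higher in CD4SP: Kdm2b, Kat2b, Ctcf, Suz12, Ezh1 and Arid1a. They make up 13.6% of the members, against 20.8% of all tested genes at any fold (17.6% higher in CD4SP and 3.23% higher in CD8SP). No member passed in the CD8SP direction. Both shares of calls were thus below the background of the table in this fit. For the adjusted p alone the order turned with library weights (54.5% of members against 36.9% of all tested genes) and without CD4SP replicate 2 (38.6% against 32.9%).

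The differences were small and mostly of one sign. Of the 44 tested members 41 had a positive difference (93.2%), against 74.8% of all tested genes, and 1 of these, Kdm6b, entered the test only through its CD4SP libraries. The exceptions were Kat2a, Crebbp and Hdac7. In 25 members (56.8%) all CD4SP libraries lay above all CD8SP libraries, which held for 36.6% of all tested genes, and in 1 (2.27%) the order was turned round, against 6.61%. The members' median log2 difference was 0.49, with quartiles of 0.305 and 0.609. Over all tested genes the median was 0.284 and the quartiles were -0.003 and 0.572. Against the median of all genes, 35 members lay above and 9 below, and the members' median stood 0.202 above it.

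**Figure D2:**
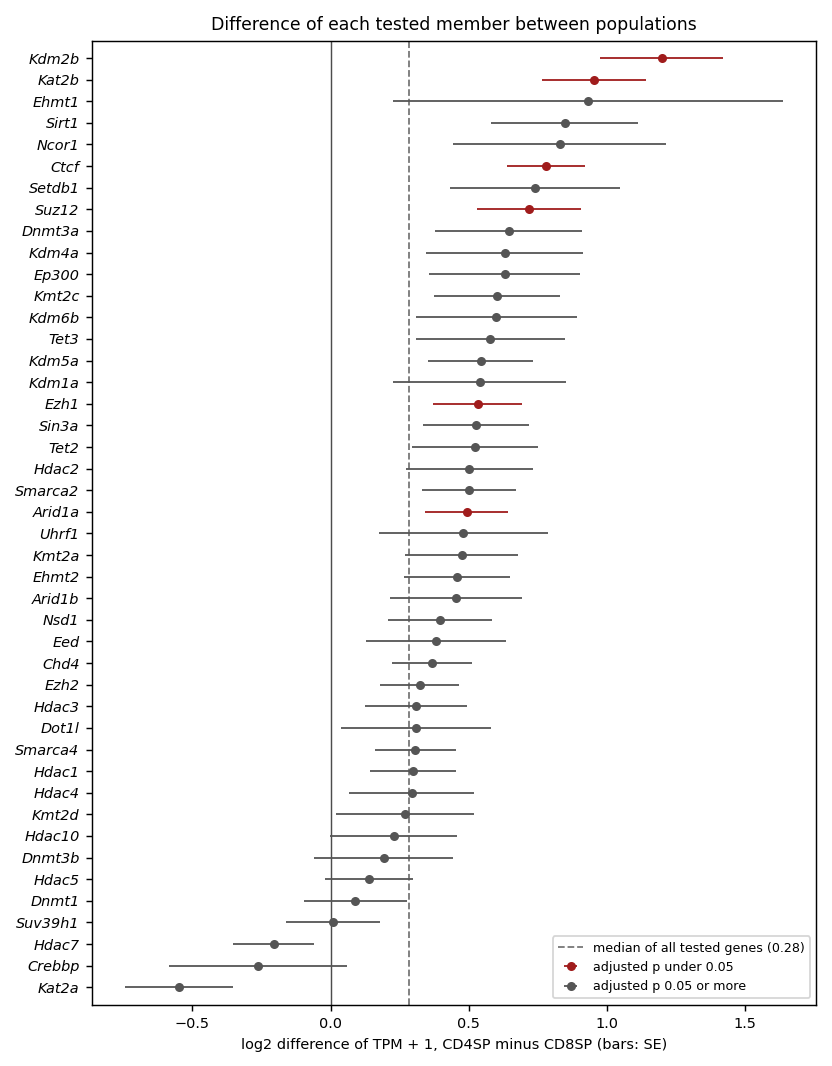
Log2 difference of TPM + 1, CD4SP minus CD8SP, for the 44 tested members in order of size, with bars of 1 SE. Red points have an adjusted p under 0.05, and the dashed line marks the median of all tested genes (0.28), above which 35 members lie.

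In TPM, the 45 members summed to 1202.8, 963.2 and 1168.0 in CD4SP replicates 1 to 3 and to 884.6, 875.0 and 788.2 in CD8SP replicates 1 to 3. CD4SP replicate 2 was the lowest of its population and still lay above every CD8SP library. The means were 1110 ± 129 and 849 ± 53.1 TPM (SD, n = 3), a ratio of 1.31 with an exact two-sided permutation p of 0.1, the smallest that 3 against 3 libraries allow. The gap of 262.1 TPM shrank to 50.1 with libraries rescaled by median of ratios, to 49.0 with quantile normalization and to 28.3 with a correction for transcript length and GC content. Members have long transcripts, with a median longest transcript of 5529 nt against 3189 nt for tested genes, and 26 of the 44 were at 4973 nt or more, the length that marks off the longest 20% of tested genes. Tested genes of that class had a median log2 difference of 0.379 and the shortest 20% one of 0.145.

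None of the 3 DNA methyltransferases nor Uhrf1 passed the test, and their log2 differences ran from 0.09 to 0.645. Dnmt1, the maintenance enzyme, was at 45.1, 29.4 and 32.3 TPM in CD4SP against 34.4, 34.7 and 29.7 TPM in CD8SP replicates 1 to 3. The groups overlapped, with a log2 difference of 0.09 (95% interval -0.34 to 0.52, adjusted p 0.755). Dnmt3a, a de novo enzyme, was at 6.04, 5.12 and 6.36 TPM in CD4SP against 4.22, 4.03 and 2.16 TPM in CD8SP. Its groups did not overlap, but the difference of 0.645 (SE 0.266) missed the threshold (adjusted p 0.118). Dnmt3b, the other de novo enzyme, lay between 2.24 and 3.85 TPM in all 6 libraries. Uhrf1, which brings Dnmt1 to newly copied DNA, was highest in replicate 3 of both populations (19.3 and 10.8 TPM) and between 7.23 and 11 TPM elsewhere.

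The TET dioxygenases were low. Tet1 was under 1 TPM in every library (0.0761 to 0.773) and was the only member not tested. Tet2 was at 7.73, 6.81 and 6.44 TPM in CD4SP against 3.81, 4.18 and 5.88 TPM in CD8SP, which did not overlap (0.522, adjusted p 0.135). Tet3 was at 7.54, 4.1 and 7.59 TPM against 4.23, 3.88 and 3.4 TPM, with CD4SP replicate 2 inside the CD8SP range (0.578, adjusted p 0.157). Both tested enzymes thus had CD4SP means above CD8SP means, and neither passed.

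Of the 4 PRC2 subunits, 2 were higher in CD4SP at an adjusted p under 0.05, Suz12 and Ezh1, where 17.6% of all tested genes passed in that direction. Suz12, the scaffold that holds the complex together, was at 36.1, 28.9 and 43.6 TPM in CD4SP against 19.4, 20.8 and 24.0 TPM in CD8SP. Every CD4SP library lay above every CD8SP library, and the log2 difference was 0.717 (SE 0.188, adjusted p 0.0303). Ezh1, the catalytic subunit typical of resting cells, was at 48.2, 54.8 and 39.1 TPM against a narrow 31.4, 32.8 and 32.2 TPM (0.532, SE 0.16, adjusted p 0.0472). Ezh2, the catalytic subunit of dividing cells, was at 74.3, 58.0 and 71.7 TPM against 56.8, 52.6 and 52.4 TPM (0.322, adjusted p 0.136), and its groups were separate by a narrow margin. Eed, which binds the mark that PRC2 makes, was at 76.7, 38.8 and 66.5 TPM against 50.2, 47.7 and 37.0 TPM, so that CD4SP replicate 2 fell within the CD8SP range. The Suz12 difference stood 0.433 above the median of all genes, that of Ezh1 0.248 above and that of Ezh2 0.038 above. After median-of-ratios rescaling neither Suz12 (0.42, adjusted p 0.123) nor Ezh1 (0.233, adjusted p 0.44) passed. Suz12 also missed the threshold without any single library except CD4SP replicate 2 (adjusted p 0.0513 to 0.115), and Ezh1 without any except CD4SP replicate 3 (0.0533 to 0.152). Of 20 tested genes of S phase and mitosis, 1 passed (Rrm2, 0.515, adjusted p 0.0435), and their summed level was 2450, 1770 and 2330 TPM in CD4SP against 2040, 2120 and 1880 TPM in CD8SP.

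Histone demethylases held the largest difference among the members. Kdm2b, which binds unmethylated CG-rich DNA through a zinc finger and brings a variant Polycomb complex to it, measured 11.2, 12.5 and 13.1 TPM in CD4SP against 5.64, 5.42 and 3.52 TPM in CD8SP replicates 1 to 3. The lowest CD4SP library lay far above the highest CD8SP library. The means were 12.3 ± 0.969 and 4.86 ± 1.17 TPM (SD, n = 3), and the log2 difference was 1.20 (SE 0.224, 95% interval 0.69 to 1.71, adjusted p 0.00798), 0.913 above the median of all genes. The difference fell under 2-fold after median-of-ratios rescaling (0.929, adjusted p 0.0211), quantile normalization (0.831, adjusted p 0.0353) and the length and GC correction (0.867, adjusted p 0.0265), which ended the call at 2-fold but not the adjusted p. Annotated Kdm2b transcripts share 627 nt with the neighbouring gene Rnf34, and counting by strand was not stated. Rnf34 itself was at 29.0, 17.3 and 26.7 TPM in CD4SP against 26.3, 29.9 and 16.4 TPM in CD8SP, with a log2 difference of 0.02 (adjusted p 0.965).

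The other 4 demethylases had CD4SP means above CD8SP means and did not pass. Kdm5a, which removes methyl groups from the mark of active promoters, was at 13.2, 10.7 and 12.8 TPM against 7.77, 7.48 and 9.01 TPM (0.543, SE 0.189, adjusted p 0.0746). Kdm4a, which acts on heterochromatin and gene-body marks, lay between 1.84 and 3.62 TPM in CD4SP against 1.35 and 1.72 TPM in CD8SP libraries. For Kdm6b, which removes the Polycomb mark, the ranges were 1.09 to 2.43 and 0.754 to 0.86 TPM, so that it met the 1 TPM filter only through the CD4SP libraries and its separate groups are a description. The groups of Kdm5a and Kdm4a did not overlap either, as in 36.6% of all tested genes. Kdm1a (LSD1), an amine oxidase that acts on methylated lysine, was at 40.0, 27.6 and 28.8 TPM in CD4SP against 27.7, 28.6 and 12.4 TPM in CD8SP, with CD8SP replicate 3 standing apart from the other CD8SP libraries.

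Of the 9 histone methyltransferases none passed, and all 9 had positive differences, as had 74.8% of all tested genes. In 4 of the 9 every CD4SP library lay above every CD8SP library, as in 36.6% of all tested genes. Setdb1, which silences retroelements in heterochromatin, had the largest difference after Ehmt1, at 24.1, 12.3 and 23.3 TPM in CD4SP against 13.2, 13.2 and 7.61 TPM in CD8SP (0.74, SE 0.308, adjusted p 0.12). CD4SP replicate 2 fell below both higher CD8SP libraries, and without it the difference was 1.04 (adjusted p 0.0243). Of the trithorax-type enzymes, which mark promoters and enhancers, Kmt2a was at 9.82 to 14.1 against 7.54 to 7.96 TPM (adjusted p 0.132) and Kmt2c at 4.6 to 6.6 against 3.29 to 3.7 TPM (adjusted p 0.0955). Both were without overlap between populations. Kmt2d overlapped, at 2.06 to 2.48 against 1.44 to 2.13 TPM (adjusted p 0.463). Ehmt2 (G9a) was at 37.8, 26.0 and 41.0 TPM against 23.8, 25.4 and 24.9 TPM (0.458, adjusted p 0.121). Nsd1, which marks gene bodies and intergenic chromatin, was separate by a narrow margin, at 12.1 to 16.6 TPM against 10.1 to 11 TPM (0.395, adjusted p 0.163).

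A pair of heterochromatin enzymes stood out for other reasons. Suv39h1, at 31.7, 23.9 and 23.1 TPM in CD4SP against 27.1, 24.9 and 25.4 TPM in CD8SP, had the difference nearest 0 of all members, 0.01 (95% interval -0.38 to 0.4). Ehmt1 (GLP), the partner of Ehmt2, was at 2.91, 12 and 19.7 TPM in CD4SP against 2.29, 2.34 and 12.8 TPM in CD8SP. Its values split within both populations, low in replicate 1 of each and in CD8SP replicate 2 and high in the rest, so its difference of 0.931 had the widest error of the members (SE 0.707, adjusted p 0.366). Dot1l, which methylates the nucleosome core at transcribed genes, overlapped at 3.36 to 5.62 and 2.35 to 3.96 TPM (0.309, adjusted p 0.438).

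The 8 histone deacetylases had the largest summed level of the classes, which differ in their number of genes. They summed to 324, 262 and 329 TPM in CD4SP against 283, 275 and 234 TPM in CD8SP. None of the 8 passed. Hdac1 was at 94.8, 69.7 and 97.4 TPM against 69.6, 68.6 and 72.1 TPM (0.297, adjusted p 0.199). Hdac2 was at 40.4, 41.5 and 42.7 TPM against 35.0, 35.7 and 19.5 TPM (0.502, adjusted p 0.153). Hdac3 was at 59.0, 41.2 and 54.5 TPM against 45.4, 44.0 and 34.2 TPM (0.31, adjusted p 0.255). Of these class I enzymes, which work in co-repressor complexes, only Hdac2 had groups without overlap. Hdac1 has 2 near-identical annotated copies (up to 99.4% over 1444 nt), so part of its reads could have been assigned elsewhere.

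Among the class II enzymes, which shuttle between cytoplasm and nucleus, Hdac7 leaned the other way. It was at 75.3, 62.2 and 68.7 TPM in CD4SP against 88.9, 82.1 and 68.1 TPM in CD8SP, a log2 difference of -0.21 (95% interval -0.54 to 0.13, adjusted p 0.338). CD8SP replicate 3 fell within the CD4SP range, and CD8SP replicates 1 and 2 lay above it. With libraries rescaled by median of ratios the difference was -0.51 (adjusted p 0.0177). Hdac5 (19.3 ± 1.17 against 17.5 ± 1.42 TPM, SD, n = 3), Hdac4 (7.85 ± 1.85 against 6.15 ± 0.646 TPM) and Hdac10 (13.3 ± 2.67 against 11.2 ± 2.4 TPM) had differences of 0.138, 0.293 and 0.228, with adjusted p of 0.561, 0.374 and 0.497. Sirt1, an NAD-dependent deacetylase, was at 16.1, 10.9 and 19.3 TPM in CD4SP against 6.0, 8.11 and 10.2 TPM in CD8SP. Its groups were just separate, and the difference of 0.846 (SE 0.266) narrowly missed the threshold (adjusted p 0.0551).

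Among the histone acetyltransferases, 2 members had positive and 2 negative differences. Kat2b (PCAF) was at 25.7, 23.7 and 32.0 TPM in CD4SP against 14.3, 14.9 and 11.3 TPM in CD8SP, all CD4SP values being above all CD8SP values (0.953, SE 0.189, 95% interval 0.52 to 1.38, adjusted p 0.0101). Its close relative Kat2a (GCN5), which can take the same place in the SAGA and ATAC complexes, was at 38.3, 37.3 and 25.9 TPM against 51.0, 56.3 and 41.5 TPM. Here every CD8SP library lay above every CD4SP library, with a difference of -0.55 (SE 0.195, 95% interval -0.99 to -0.1, adjusted p 0.0793), 0.833 below the median of all genes. Kat2a passed in the CD8SP direction after median-of-ratios rescaling (-0.85, adjusted p 0.0255) and after the length and GC correction (-0.84, adjusted p 0.0179). Kat2b passed under both as well, at 0.661 and 0.589 with adjusted p of 0.0213 and 0.033. An annotated pseudogene, Kat2b-ps, is 95.1% identical to Kat2b over 2479 nt.

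The enhancer acetyltransferases were low. Ep300 was at 3.11, 1.67 and 2.33 TPM in CD4SP against 1.05, 1.23 and 1.16 TPM in CD8SP, which did not overlap (0.63, adjusted p 0.132). Crebbp, its paralogue, was at 4.37, 1.43 and 3.02 TPM against 3.68, 3.74 and 3.08 TPM (-0.26, adjusted p 0.584). CD4SP replicate 2 was the lowest value, and without it the sign of the Crebbp difference turned, to 0.05. The summed level of the 4 acetyltransferases was 66.3 ± 4.59 TPM in CD4SP against 67.8 ± 9.71 TPM in CD8SP libraries (SD, n = 3), the only class without a higher mean in CD4SP.

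Ratios of related members within a library are moved by a rescaling of the whole library through the added 1 TPM, and 11 pairs were compared. The log2 ratio of Kat2b to Kat2a was -0.559, -0.634 and 0.294 in CD4SP and -1.762, -1.853 and -1.788 in CD8SP libraries. The CD8SP libraries were nearly equal, and all CD4SP libraries lay above them, by 1.502 in the mean. The ratio of Ep300 to Crebbp was -0.384, 0.137 and -0.273 against -1.19, -1.089 and -0.917, a difference of 0.892, or 1.318 with a pseudocount of 0.1. That of Dnmt1 to Dnmt3a was 2.712, 2.313 and 2.179 against 2.763, 2.826 and 3.282, a difference of -0.56. These 3 pairs were without overlap between populations, each with an exact permutation p of 0.1 (two-sided), which 3 against 3 libraries cannot go below, or 0.367 adjusted over the 11 pairs, so that none passed. The other 8 pairs overlapped, among them Ezh2 to Ezh1 (difference -0.21, exact p 0.5), Smarca4 to Smarca2 (-0.19, exact p 0.3) and Arid1b to Arid1a (-0.04, exact p 0.7). The small Arid1b to Arid1a difference turned sign under some settings, such as median-of-ratios rescaling (0.036).

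**Figure D3:**
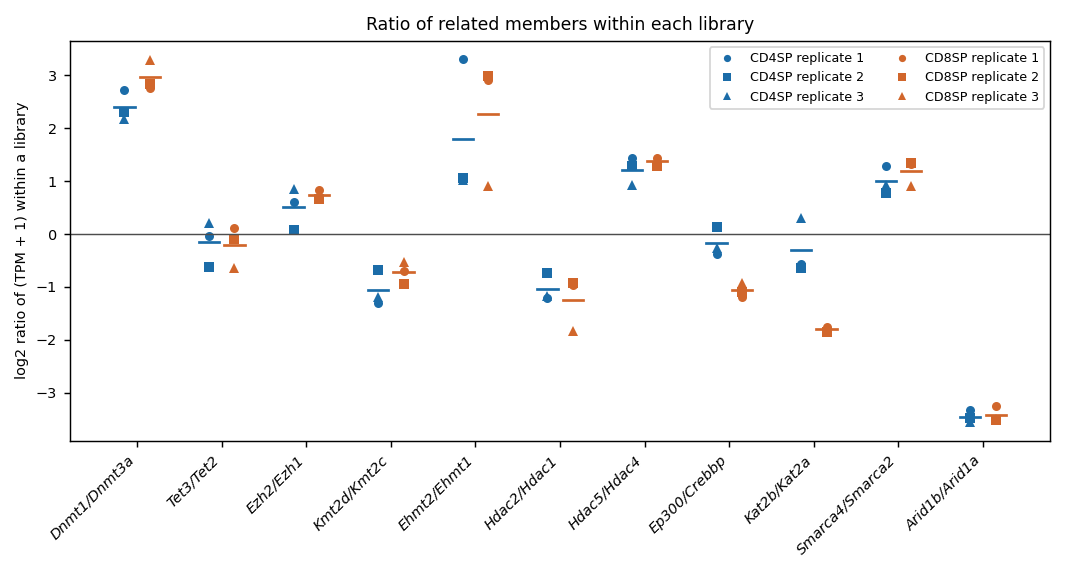
Log2 ratio of (TPM + 1) of 11 pairs of related members within each library, with blue symbols for CD4SP, orange for CD8SP and short lines for means of 3 libraries. Kat2b to Kat2a shows the widest gap between populations (1.502), with the CD8SP libraries between -1.853 and -1.762.

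In the deposited scale, where 36.6% of all tested genes had every CD4SP library above every CD8SP library, all 5 chromatin remodellers had so too, and Smarca4 turned sign under the length and GC correction (-0.05). Arid1a, the DNA-binding subunit of the BAF complex, was at 46.2, 46.8 and 54.0 TPM in CD4SP against 34.5, 38.6 and 30.7 TPM in CD8SP (0.492, SE 0.149, adjusted p 0.049) and was the only one to pass. Its adjusted p passed in 3 of 18 alternatives and ranged from 0.0235 to 0.576 over them, and was 0.0796 to 0.151 without any single library except CD4SP replicate 2. The alternative ATPases of that complex were at 45.3 to 50.2 against 32.9 to 41.0 TPM for Smarca4 (Brg1) and at 19.9 to 26.2 against 15.0 to 17.0 TPM for Smarca2 (Brm), with adjusted p of 0.163 and 0.0691. Chd4, the ATPase of the NuRD complex, had the tightest replicates, at 25.6, 24.7 and 26.0 TPM against 19.7, 19.5 and 19.3 TPM, and its difference of 0.366 stood 0.082 above the median of all genes (adjusted p 0.105). Arid1b, the alternative to Arid1a, was at 3.31 to 3.69 against 1.82 to 2.76 TPM (0.455, adjusted p 0.203).

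Among the scaffolds, the insulator protein Ctcf, which anchors chromatin loops, had the smallest adjusted p of all members. It was at 71.0, 63.3 and 76.9 TPM in CD4SP against 39.8, 37.2 and 44.7 TPM in CD8SP. The lowest CD4SP value was well above the highest CD8SP value, and the log2 difference was 0.779 (SE 0.141, 95% interval 0.46 to 1.1, adjusted p 0.00692), or 0.437 with the length and GC correction (adjusted p 0.0565). Ncor1, the nuclear receptor co-repressor that holds Hdac3, was at 49.1, 13.4 and 25.6 TPM in CD4SP against an even 13.7, 13.8 and 14.7 TPM in CD8SP libraries. CD4SP replicate 2 was the lowest of the 6, and the difference of 0.828 had an SE of 0.386 (adjusted p 0.158). Without that library it was 1.27 (adjusted p 0.0158). Sin3a, the scaffold of another deacetylase complex, was at 18.0, 12.9 and 17.2 TPM against 11.2, 10.8 and 10.2 TPM (0.526, SE 0.191, adjusted p 0.0838).

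Libraries of one population were not equally alike. CD4SP replicate 2 was the lowest of its population for 29 of the 44 tested members (65.9%), and for 57.9% of all tested genes. CD8SP replicate 3 was the lowest of its population for 24 (54.5%), against 56.3% of all tested genes. CD8SP replicates 1 and 2 differed by a median of 0.0742 (log2) over the members, against 0.211 to 0.373 in the other replicate pairs. Without CD4SP replicate 2, 17 members (38.6%) had an adjusted p under 0.05, against 32.9% of all tested genes in that fit. In it 5 of the 44 members were called, Kat2b, Kdm2b, Ncor1, Setdb1 and Sirt1, beside 1202 of all 10476 tested genes. Leaving out any other library left 3 or 4 members at an adjusted p under 0.05 (6.82 to 9.09%, against 10.2 to 14.4% of all tested genes).

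The scaling of the libraries moved most members in the same direction. The median over all tested genes was 0.144 without the ribosomal protein genes, 0 under median-of-ratios rescaling, -0.015 under quantile normalization and -0.03 under the length and GC correction, and the members' median was 0.345, 0.197, 0.151 and 0.129. Beyond the median of all genes, the members' median thus stood 0.155 to 0.201 higher, against 0.202 in the deposited scale. The number of members with a positive difference fell from 41 of 44 to 38, 34 of 43 (Kdm6b no longer passed the filter), 33 and 30. Over those of the 18 alternatives in which each was tested (10 members missed 1 or 2, through the filter), 31 members kept their sign and 13 changed it at least once, namely Crebbp, Dnmt1, Dnmt3b, Dot1l, Ezh2, Hdac1, Hdac3, Hdac4, Hdac5, Hdac10, Kmt2d, Smarca4 and Suv39h1. Signs changed in 6 members under median-of-ratios rescaling, 8 under quantile normalization and 11 under the length and GC correction. These settings lowered most members together, so the tally is no measure of the stability of single members. Median-of-ratios rescaling and quantile normalization each left 5 members at an adjusted p under 0.05, Ctcf, Kat2b and Kdm2b in the CD4SP and Hdac7 and Kat2a in the CD8SP direction. That is 11.6% of members against 15.9% of all tested genes under the first, and 11.4% against 14.9% under the second.

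**Figure D4:**
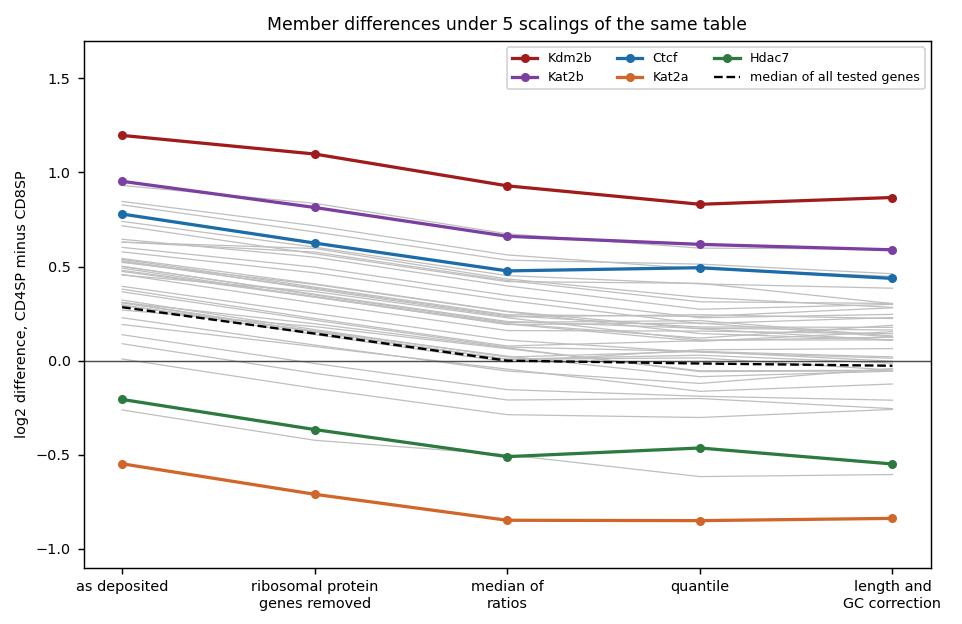
Log2 difference, CD4SP minus CD8SP, of 43 members (lines) under 5 scalings of the same table, with 5 members in colour and the median of all tested genes dashed. The median falls from 0.284 to about 0, and most lines fall with it by amounts that differ between members. Kdm2b stays between 0.831 and 1.197 and Kat2a between -0.85 and -0.55.

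The wider families of the members were read from a list of 180 further genes, of which 179 had a row and 168 were tested. Of these 9 were called (5.36%, against 9.73% of all tested genes), 5 higher in CD4SP and 4 higher in CD8SP, and 30 passed on the adjusted p alone (17.9%, against 20.8%), 25 and 5 by direction. Their median log2 difference was 0.326. Genes named below that were not called were chosen after their values were seen.

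Of 8 tested genes linked to DNA demethylation other than the TET enzymes, 4 were called, 3 higher in CD4SP (7.92% of all tested genes) and 1 higher in CD8SP (1.8%), and the others, such as Tdg (0.183, adjusted p 0.528) and Gadd45g (0.396, adjusted p 0.109), were not. Gadd45b, a stress-induced gene linked to active DNA demethylation, was at 148, 125 and 141 TPM in CD4SP against 39.4, 45.6 and 32.0 TPM in CD8SP (1.81, adjusted p 0.000234), and Gadd45a at 12, 12 and 10.9 TPM against 3.24, 3.03 and 3.1 TPM (1.61, adjusted p 0.0011). Both were far apart between populations and even within them. Cxxc5, a CG-binding protein that interacts with Tet2, went the other way at 1.01, 0.432 and 1.64 TPM against 3.55, 3.27 and 4.92 TPM (-1.31, adjusted p 0.0207). Among readers of DNA methylation, Uhrf2 and Mbd2 were higher in CD4SP, with differences of 0.816 and 0.506 and adjusted p of 0.00664 and 0.0285.

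Of 17 further demethylases tested, 13 had a positive difference, as had 74.8% of all tested genes. On the adjusted p 5 passed in the CD4SP direction (17.6% of all tested genes) and 1, Kdm3a, in the other (3.23%). Kdm3b was at 8.52, 6.15 and 8.04 TPM in CD4SP against 2.66, 2.56 and 1.26 TPM in CD8SP (1.46, adjusted p 0.00805). Its paralogue Kdm3a, which removes the heterochromatin mark, was at 11.3, 6.98 and 10.6 TPM against 25, 23.1 and 25.1 TPM (-1.28, adjusted p 0.00441), so the 2 genes were opposed without overlap. Kdm1b (LSD2), the paralogue of Kdm1a, was at 13.3, 12.9 and 18.9 TPM against 5.95, 6.75 and 7.65 TPM (1.03, adjusted p 0.0129). Of 23 genes of the methyltransferase families, 18 had a positive difference, and on the adjusted p 2 passed in the CD4SP direction, Kmt5b (0.693, adjusted p 0.0369) and Nsd2 (0.683, adjusted p 0.0286), and 3 in the CD8SP direction. Of these last, Carm1 (11.3, 3.38 and 6.7 against 24.8, 21.4 and 13.0 TPM) and Smyd2 (26.1, 14.3 and 22.3 against 48.2, 46.7 and 37.6 TPM) were called, as were 1.8% of all tested genes in that direction, with differences of -1.43 and -1.08 and adjusted p of 0.0331 and 0.0135. Carm1 methylates arginine and Smyd2 lysine, on histones and on other proteins.

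No further Polycomb gene of 28 tested was called, and 4 passed on the adjusted p, all higher in CD4SP, which is a smaller share than the 17.6% of all tested genes that passed in that direction. They were Cbx7 (0.751, adjusted p 0.00821) and Cbx8 (0.914, adjusted p 0.0314), which read the Polycomb mark, Yaf2 (0.902, adjusted p 0.00429), a subunit of variant PRC1, and Asxl1 (0.862, adjusted p 0.00604), a subunit of the Polycomb deubiquitinase. Yaf2 was at 50.1, 41.4 and 47.7 TPM in CD4SP against 25.8, 24.3 and 22.8 TPM in CD8SP. Of 37 further remodelling genes 1 passed (Chd3, 0.628, adjusted p 0.0136), and of 22 further scaffold and cohesin genes 2, the cohesin subunit Stag1 (0.972, adjusted p 0.00749) and Suds3 of the Sin3 complex (0.52, adjusted p 0.0281). Stag1, which works with Ctcf at loop anchors, was at 20.8, 21.2 and 21.3 TPM against 11.4, 11.2 and 8.5 TPM.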

How the data were processed

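The authors amplified cDNA from 1000 sorted cells per library with a whole-transcriptome kit, made libraries by tagmentation, aligned reads to mm10 with HISAT2 and deposited TPM estimated with StringTie, with 1 column per library. Strand use, duplicate removal and the sharing of reads between similar genes were not given in the sources used here. TPM keeps no depth, so no counting interval or detection floor was computed, and an exact 0 is described as listed at 0. The table held 23420 rows, 9818 of them 0 in all libraries and 27 with names turned into dates.

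The filter kept genes reaching 1 TPM in 3 or more of 6 libraries, and tests used log2(TPM + 1), which understates changes of low genes. limma 3.58.1 in R 4.3.3 (lmFit, eBayes with a mean-variance trend) was fitted with the population as its only term and Benjamini-Hochberg adjustment over all 10476 genes. The fit was tested on simulated data. A gene was called at an adjusted p under 0.05 and over 2-fold. No count test was run, as TPM are not counts. The members, roles, gene lists and alternatives were chosen with earlier results of these data known. Named were all members, of the wider families per role up to 3 called genes with the largest difference and no overlap, and, from the other lists, a choice among genes at 1 TPM or more in some library. Other genes named, such as uncalled ones of the wider families and ones listed at 0, were chosen after their values were seen. Ratios and sums were compared by exact two-sided permutation of libraries. The alternatives were another pseudocount (0.1), no filter or one of 5 TPM, 2 rescalings, removal of ribosomal protein genes, a length and GC correction (splines with 5 degrees of freedom) with and without a replicate block, the block alone, no trend, library weights, the average of CD8SP replicates 1 and 2, and leaving out each library. Near copies were alignments by blastn 2.17.0 of at least 95% identity over 200 nt between longest GENCODE transcripts of members and all transcripts on GRCm38. Promoters were RefSeq windows on GRCm38.p6.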

Additional observations from a re-analysis of the deposited data

How the results depend on the processing

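Across 18 alternatives the count of members called (1, higher in CD4SP) became 0 with median-of-ratios rescaling, with quantile normalization and with the length and GC correction (block or none), 3 with library weights and 2 with CD8SP replicates 1 and 2 averaged, and leaving out single libraries gave 1 to 5. Among all tested genes of each fit, 1019 were called as deposited, 1172 with library weights and 809 with the averaged replicates. Without single libraries 817 to 1202 genes were called. No member was called higher in CD8SP in any alternative. The count on the adjusted p alone (6) became 24 with library weights (54.5% of members, against 36.9% of all tested genes), 3 with the averaged CD8SP replicates (6.82% against 10.7%) and 3 to 17 on leaving out a library, where 10.2 to 32.9% of all tested genes passed. The cause of these moves was not tested. The members' median difference (0.486) was 0.197, 0.151, 0.345 and 0.129 under median-of-ratios rescaling, quantile normalization, removal of ribosomal protein genes and correction for length and GC, and 0.412 to 0.505 without single libraries. Their summed gap (262.1 TPM) was 50.1, 49.0 and 28.3 TPM under the first, second and last of these and 216.3 to 336.1 TPM without single libraries. Called genes of the wider families (9) were 5 to 12 without single libraries, 5 of them without CD8SP replicate 1 or CD8SP replicate 2. The difference of Crebbp ran from -0.522 to 0.05 without single libraries, turning sign without CD4SP replicate 2. Kdm2b and Kat2b kept an adjusted p under 0.05 in 17 of 18 alternatives each, and Ctcf in 16. The share of called genes of the whole table higher in CD4SP was 81.5% as deposited and 61.4, 57.1, 72.6 and 59.5% under the same 4 settings in that order.

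With the replicate number as a replicate block, 4 members had an adjusted p under 0.05 (Ctcf, Kat2b, Kdm2b and Suz12), 9.09% against 15.0% of all tested genes. In that fit 1 member was called, beside 997 of all tested genes. With the length and GC correction and the replicate block together 2 members passed (Hdac7 and Kat2a), 4.55% against 12.3%. None was called there and the members' median was 0.129. The numbers were not taken to pair the libraries: deviations of same-numbered libraries from the population means correlated at 0.0515, -0.0168 and 0.0887 across genes, and only replicate 3 correlated best with its own number. As depth is unknown, the precision of low members such as Tet1, Kdm6b and Ep300 could not be given beyond the spread of 3 libraries.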

Other observations

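Genes that this machinery is known to silence were read as well. Of the HoxA cluster, Meis1 and the Cdkn2 genes (15 rows), 10 were listed at 0 in all 6 libraries, including Meis1. Hoxa9, which is also on the inducible cassette, was the only HoxA gene to pass the filter, at 7.55, 9.98 and 8.39 TPM in CD4SP against 0.797, 0.436 and 0.445 TPM in CD8SP and met the 1 TPM filter only through the CD4SP libraries, so no test is given for it. TPM per gene does not tell cassette and endogenous transcripts apart. Cdkn2a, a classical Polycomb target, was listed at 0 in 4 of the 6 libraries and at 0.888 and 0.598 TPM in replicate 1 of CD4SP and CD8SP. Its neighbour Cdkn2b was detected in all 6, at 4.64, 0.561 and 5.9 TPM against 2.08, 2.75 and 2.69 TPM, and its groups overlapped (0.171, adjusted p 0.831). Cdkn2c, an inhibitor of cyclin-dependent kinases, was at 43.2, 35.3 and 39.0 TPM against 28.8, 28.7 and 18.5 TPM (0.631, adjusted p 0.0571).

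Of 15 germline genes whose promoters are usually silenced by DNA methylation, 11 were listed at 0 in all 6 libraries, among them Ddx4, Mael, Sycp1, Sycp3 and Mov10l1. Tdrkh, a Tudor domain gene of the piRNA pathway, was the only one to pass the filter, at 1.82, 1.78 and 3.04 TPM in CD4SP, and in CD8SP listed at 0 in replicates 1 and 2 and at 0.186 TPM in replicate 3, and it too met the filter only through CD4SP. Brdt, a testis bromodomain gene, lay between 0.246 and 1.01 TPM in CD4SP against 0.0699 and 0.345 TPM in CD8SP libraries. Methylation of these promoters was not measured here.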
